A study of Homo sapiens with 6 samples.

Results

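Cells that receive a signal of the TGF-beta family also make proteins that dampen it. The inhibitors described here act inside the receiving cell or in its membrane: BAMBI, SKIL, SKI, PMEPA1, LDLRAD4, SMURF1, SMURF2, TGIF1 and TGIF2. These 9 genes, of 19775 genes named on the array, were chosen by name for their known roles, with earlier results of these data known. Every probe set whose platform annotation gave 1 of these symbols alone was taken, which gave 30 of 54613 probe sets. A probe set is a group of short probes that together read 1 stretch of a transcript.

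The RNA came from SUM-LM1 cells, a lung-metastatic derivative of the human breast cancer line SUM159, so every array describes 1 cell line. All cells, without any genetic change between the groups, were seeded at 12500 cells per ml in HuMEC medium in ultra-low attachment plates, where they float instead of adhering. The 3 activin B samples received recombinant human activin B at 50 ng/ml for 6 h. The 3 vehicle samples received only the carrier, 0.1% BSA in PBS, for the same 6 h. From each sample, 50 ng of total RNA was labelled and hybridised to an Affymetrix array, and the titles call the 3 samples of a group biological replicates. The comparison asks which transcripts differed after a few hours of activin B.

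Ligands of the TGF-beta family bind pairs of type I and type II receptor kinases, which phosphorylate receptor SMADs. These join SMAD4, enter the nucleus and regulate target genes, and activins are classically placed in the SMAD2/3 branch and bone morphogenetic proteins in the SMAD1/5 branch. Several targets encode inhibitors that act on the receptors, on the SMADs or on the SMAD complex at DNA, and this arrangement is called negative feedback. In breast cancer the pathway is known both for restraining the growth of epithelial cells and for promoting invasion.

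BAMBI and SKIL held the probe sets of the group that rose with activin B. PMEPA1 came next in size without passing the test, and no probe set of SKI, LDLRAD4, SMURF1, SMURF2, TGIF1 or TGIF2 passed. Windows around the transcription starts of BAMBI, SKIL and PMEPA1 are shown because these genes had the largest differences, and promoters are where SMAD complexes may bind. Each window runs from 250 bases before to 50 bases after a start site annotated by RefSeq in GRCh38.p14, 5′ to 3′ on the strand of the gene. Capitals mark CAGAC, the core of the SMAD3/4 box, or its reverse complement GTCTG, and GGCGCC, a GC-rich element that SMAD1/5 can bind. The BAMBI window is chr10:28677271-28677570 on the plus strand, the SKIL window is chr3:170357465-170357764 on the plus strand, and the PMEPA1 window, which holds the most CAGAC matches of its 4 windows, is chr20:57709966-57710265 on the minus strand.
BAMBI: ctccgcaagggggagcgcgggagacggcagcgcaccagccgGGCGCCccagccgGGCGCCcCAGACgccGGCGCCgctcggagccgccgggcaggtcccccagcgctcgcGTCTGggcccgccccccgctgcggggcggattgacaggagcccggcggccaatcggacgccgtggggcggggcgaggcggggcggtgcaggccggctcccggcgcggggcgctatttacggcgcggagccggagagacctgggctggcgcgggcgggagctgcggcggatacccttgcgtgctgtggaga
SKIL: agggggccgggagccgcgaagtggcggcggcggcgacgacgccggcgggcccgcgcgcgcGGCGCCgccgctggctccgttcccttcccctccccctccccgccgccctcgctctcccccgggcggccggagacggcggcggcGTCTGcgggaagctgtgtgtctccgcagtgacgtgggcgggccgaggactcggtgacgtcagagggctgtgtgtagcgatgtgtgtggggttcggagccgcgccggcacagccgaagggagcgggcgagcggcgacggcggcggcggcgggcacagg
PMEPA1: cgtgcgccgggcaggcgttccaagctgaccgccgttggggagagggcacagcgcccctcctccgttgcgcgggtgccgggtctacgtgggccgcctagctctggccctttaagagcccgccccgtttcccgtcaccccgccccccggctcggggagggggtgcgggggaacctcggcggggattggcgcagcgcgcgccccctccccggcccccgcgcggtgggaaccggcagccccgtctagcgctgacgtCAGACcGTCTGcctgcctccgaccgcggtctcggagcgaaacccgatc

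The BAMBI window held 2 matches to CAGAC and 3 to GGCGCC, and the SKIL window held 1 of each. The PMEPA1 window shown held 2 matches to CAGAC and 0 to GGCGCC. Over its 4 windows, PMEPA1 had CAGAC in 3 and GGCGCC in 1. Such short words are common. Searched on both strands, CAGAC occurred in 45.3% of 35116 windows of this length over all genes, and GGCGCC occurred in 19.2%. Over the group, 8 genes had a window, 26 windows in all, of which 18 held CAGAC and 6 held GGCGCC. Some windows of the same gene overlap, as in TGIF1 and TGIF2, so a site can be counted more than once. The palindromic SMAD box GTCTAGAC occurred in 0 of these 26 windows and in 0.202% of all windows. TGTCA, the core that TGIF proteins bind, occurred in 10 of the 26 and in 38.9% of all windows. Among the searched words, CAGAC and GGCGCC can share at most 1 base.

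The windows of BAMBI and SKIL were the 2 of 26 that held both CAGAC and GGCGCC, a pairing that was noticed after the values were seen. It was present in 7.87% of all windows. With GC contents of 80.0% for BAMBI and 79.0% for SKIL, the nearer background is the 3377 windows with at least 75% GC, of which 17.9% held both words. A match describes the letters of the window and does not show binding.

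The signals were log2 values from 5.79 to 14.22, and the median signal of an array lay between 6.69 and 6.70. Correlations between arrays ran from 0.9935 to 0.9961. The third activin B array stood apart from the rest on the first principal component, which held 29.5% of the variance. Results on BAMBI, SKIL and PMEPA1 are therefore also given without that array. Of 10 markers measured for the breast cancer line, 8 lay above the array median on all 6 arrays, namely VIM, CD44, KRT8, KRT18, KRT5, KRT14, ESR1 and ERBB2, with ESR1 close to it at 6.81 in vehicle, and EPCAM and PGR lay under it on all 6. Of 4 endothelial markers, CDH5 and KDR lay under the median on all arrays, TEK was above it on 2 arrays and PECAM1 on all 6. Of 3 leukocyte markers, PTPRC and CD14 lay under it on all arrays and CD3E was above it on 5. Of 4 fibroblast markers, DPT lay under it on all arrays, THY1 was above it on 5, and COL1A1 and PDGFRA on all 6. All activin B arrays were lower than all vehicle arrays for KRT18, KRT5, PECAM1 and DPT. They were all higher for KRT14, EPCAM, ERBB2, CD3E and PDGFRA. Over all probe sets, 4.89% were lower in this way and 4.91% were higher. The part of these genes in the results was not tested. None of the 21 genes checked was called different between the groups.

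BAMBI is a membrane decoy that resembles a type I receptor but lacks the kinase domain. Its single probe set, 203304_at, read 7.19, 7.07 and 7.18 on the vehicle arrays and 7.81, 7.60 and 7.55 on the activin B arrays, as log2 signals. Every activin B array was above every vehicle array, and the third vehicle and first vehicle arrays were nearly equal. BAMBI rose 1.42-fold (95% interval 1.27 to 1.59), from a mean log2 signal of 7.15 ± 0.06 to 7.65 ± 0.14 (SD, n = 3; limma adjusted p = 0.0108). The log2 change was 0.51 with an SE of 0.07. Without the third activin B array the log2 change was 0.56 (limma adjusted p = 0.00573). Without the second vehicle array, the lowest, the log2 change was 0.47 and the call was lost (limma adjusted p = 0.135).

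SKIL encodes SnoN, a nuclear protein that binds SMAD complexes on DNA and recruits corepressors. Its brightest probe set, 225227_at, read 7.88, 7.89 and 7.97 on the vehicle arrays and 8.76, 8.53 and 8.43 on the activin B arrays. The groups were separated by more than either group's own range. SKIL rose 1.58-fold by this set (95% interval 1.41 to 1.78), with a log2 change of 0.66 and an SE of 0.08 (limma adjusted p = 0.00142). It was the largest difference among the 30 probe sets. Without the third activin B array the log2 change was 0.73 (limma adjusted p = 0.000488). As for BAMBI, the first activin B array was the highest and the third was the lowest of its group.

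The other 4 SKIL probe sets did not pass the test. The set 217591_at read 6.57, 6.64 and 6.58 with vehicle and 6.87, 6.73 and 6.82 with activin B, so the groups did not overlap, and its log2 change was 0.21 (SE 0.06, limma adjusted p = 0.615). The groups overlapped for 232379_at, 206675_s_at and 215889_at, whose log2 changes were 0.02, 0.01 and −0.05. These 4 sets lay close to or below the median signal of the arrays. The log2 change of 225227_at exceeded theirs by 0.45, 0.64, 0.65 and 0.72. Each of these differences had an exact permutation p of 0.1, the smallest that the 20 labelings of 6 arrays allow (two-sided, adjusted p = 0.467 over 21 within-gene pairs). When all 5 SKIL sets were averaged, the log2 change was 0.17 and was not called (limma adjusted p = 0.413), so the SKIL result rests on its brightest probe set.

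SKI is the founding relative of SKIL and acts on SMAD complexes in the same way. Its brightest probe set, 229265_at, read 9.73, 9.77 and 10.04 with vehicle and 10.05, 9.94 and 9.86 with activin B. The groups overlapped, since the third vehicle array was close to the highest activin B array. The log2 change was 0.10 with a 95% interval of −0.08 to 0.28 (limma adjusted p = 0.995). The other 2 SKI sets had log2 changes of 0.09 and 0.02, and their groups overlapped too. The log2 change of SKIL exceeded that of SKI by 0.56 (SE 0.08), with an exact permutation p of 0.1, the smallest possible, and an adjusted p of 0.2 over the 4 pairs of related genes. Averaging all sets of each gene brought this difference to 0.10.

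PMEPA1 is a membrane protein that keeps receptor SMADs away from the receptor and promotes receptor turnover. All 3 of its probe sets were higher on every activin B array than on every vehicle array, and none passed the test. The set 222450_at read 8.20, 8.22 and 8.37 with vehicle and 8.48, 8.64 and 8.64 with activin B, a log2 change of 0.33 (SE 0.07, 95% interval 0.18 to 0.48, limma adjusted p = 0.161). The set 222449_at read 8.07, 8.04 and 8.08 with vehicle and 8.35, 8.32 and 8.33 with activin B, a log2 change of 0.27 (SE 0.06, limma adjusted p = 0.173). The set 217875_s_at read 7.09, 7.12 and 7.11 with vehicle and 7.17, 7.24 and 7.40 with activin B, a log2 change of 0.16 (limma adjusted p = 0.919). The arrays did not rank as they did for BAMBI and SKIL, since the first activin B array was the lowest of its group in 222450_at. The mean of the 3 sets had a log2 change of 0.25 (SE 0.05, limma adjusted p = 0.153). Without the third activin B array, 222450_at had a log2 change of 0.30 (limma adjusted p = 0.364).

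**Figure D1:**
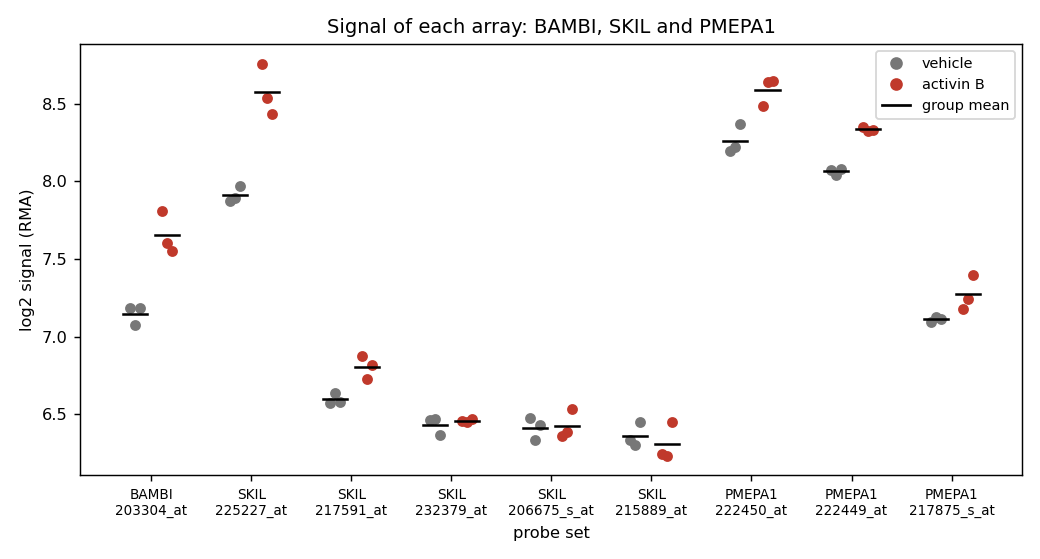
Deposited log2 signal (vertical axis) of every BAMBI, SKIL and PMEPA1 probe set on each of the 3 vehicle (grey) and 3 activin B (red) arrays; points are arrays and black bars are group means. The groups are apart by 0.51 in BAMBI, by 0.66 in the brightest SKIL set and by 0.16 to 0.33 in PMEPA1, and they overlap in 3 SKIL sets.

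LDLRAD4 is a relative of PMEPA1 with the same SMAD-binding role. Its brightest probe set, 209573_s_at, read 6.75, 6.78 and 6.85 with vehicle and 6.84, 6.58 and 6.71 with activin B. The groups overlapped, and the log2 change was −0.09 (SE 0.07, limma adjusted p = 0.995). The other 3 sets had log2 changes of 0.04, −0.03 and 0.01, also with overlapping groups, and the 95% intervals of the 4 sets ran from −0.24 to 0.17 in all. All 4 sets lay near the median signal of the arrays, 2 of them below it on every array. The log2 change of PMEPA1 exceeded that of LDLRAD4 by 0.41 (SE 0.13), with an exact permutation p of 0.1, the smallest possible, and an adjusted p of 0.2. Averaging all sets of each gene brought this difference to 0.27.

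SMURF1 and SMURF2 are ubiquitin ligases that mark SMADs and, through inhibitory SMADs, receptors for degradation. The 5 SMURF1 sets had log2 changes from −0.06 to 0.07, and the groups overlapped in each. In the brightest, 212666_at, the signals were 7.63, 7.77 and 7.69 with vehicle and 7.65, 7.76 and 7.72 with activin B, so the arrays of the groups were interleaved. The 95% intervals of the 5 sets ran from −0.22 to 0.24. The 4 SMURF2 sets had log2 changes of 0.06, 0.04, 0.17 and 0.12. In 1 of them, 230820_at, every activin B array was above every vehicle array, with readings of 7.56, 7.53 and 7.67 against 7.68, 7.88 and 7.70, but the gap between the groups was small (limma adjusted p = 0.910). The brightest SMURF2 set, 205596_s_at, had overlapping groups and a log2 change of 0.06 (95% interval −0.10 to 0.22). The log2 changes of SMURF1 and SMURF2 differed by −0.04 (SE 0.09, exact permutation p = 0.6).

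TGIF1 and TGIF2 are homeobox corepressors that bind SMAD2/3 complexes and recruit histone deacetylases. The brightest TGIF1 set, 203313_s_at, read 9.08, 8.99 and 9.06 with vehicle and 9.08, 9.16 and 9.27 with activin B, a log2 change of 0.12 (SE 0.07, limma adjusted p = 0.976). The first activin B array lay among the vehicle arrays. A second TGIF1 set, 244858_at, had the opposite sign, a log2 change of −0.16 (limma adjusted p = 0.936), and the third had 0.07. The difference between the first 2 TGIF1 sets was 0.29 (exact permutation p = 0.2). The 2 TGIF2 sets had log2 changes of 0.07 in 216262_s_at and −0.11 in 218724_s_at. In 218724_s_at every activin B array, from 7.30 to 7.33, was below every vehicle array, from 7.34 to 7.51 (limma adjusted p = 0.987). The log2 changes of TGIF1 and TGIF2 differed by 0.06 (SE 0.13, exact permutation p = 0.7).

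**Figure D2:**
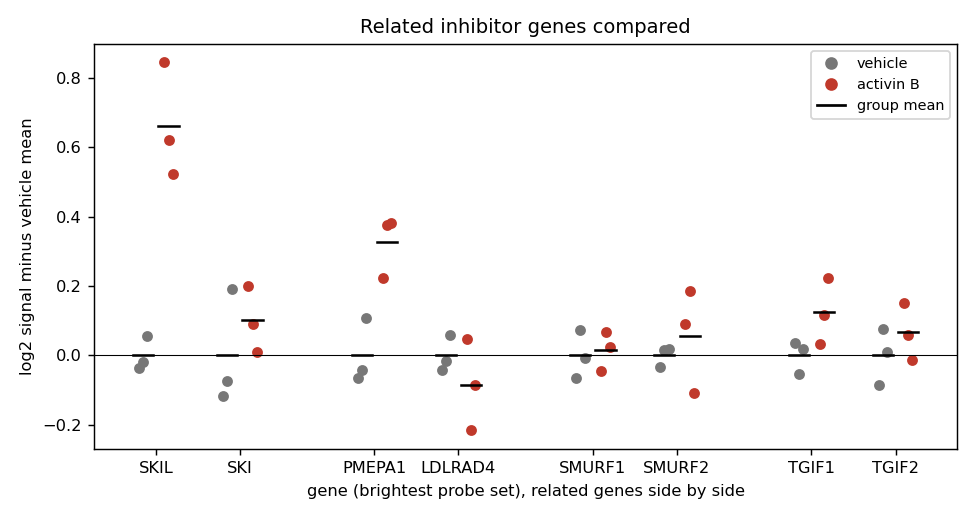
Log2 signal minus the mean of the vehicle arrays (vertical axis) for the brightest probe set of each gene in 4 related pairs; points are the 3 vehicle (grey) and 3 activin B (red) arrays and black bars are group means. The SKIL mean lies 0.66 and the PMEPA1 mean 0.33 above vehicle, clear of their own vehicle arrays, while the groups of the other 6 genes overlap, with means from −0.09 to 0.12.

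Over the 30 probe sets, 2 were called higher, 6.67% of the members, where 0.0732% of all probe sets were called higher. None of the members was called lower by limma, where 0.0476% of all were. At an unadjusted p under 0.05, 7 member sets were higher (23.3%, against 2.81% of all sets) and 1 was lower, TGIF1 244858_at (against 2.47% of all sets). All activin B arrays were above all vehicle arrays in 7 sets, 3 of PMEPA1, 2 of SKIL and 1 each of BAMBI and SMURF2, where 4.91% of all sets were. The reverse held in 1 set, that of TGIF2, where 4.89% of all sets did. In the remaining 22 sets the groups overlapped.

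With 1 probe set per gene, 2 of the 9 genes were called higher, where 0.101% of the 19775 genes were called higher and 0.091% were called lower. The median log2 change was 0.05 over the 30 sets and −0.00116 over all sets. Of the 30, 23 were positive (76.7%, against 49.3% of all sets) and 7 were negative. Of the members, 25 sets lay within 0.2 of zero, and in 3 of these, SMURF2 230820_at, PMEPA1 217875_s_at and TGIF1 244858_at, the 95% interval did not include 0. The median SE was 0.071 for the members and 0.0686 for all sets. Sets of 1 gene read the same transcripts and are not independent of each other.

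**Figure D3:**
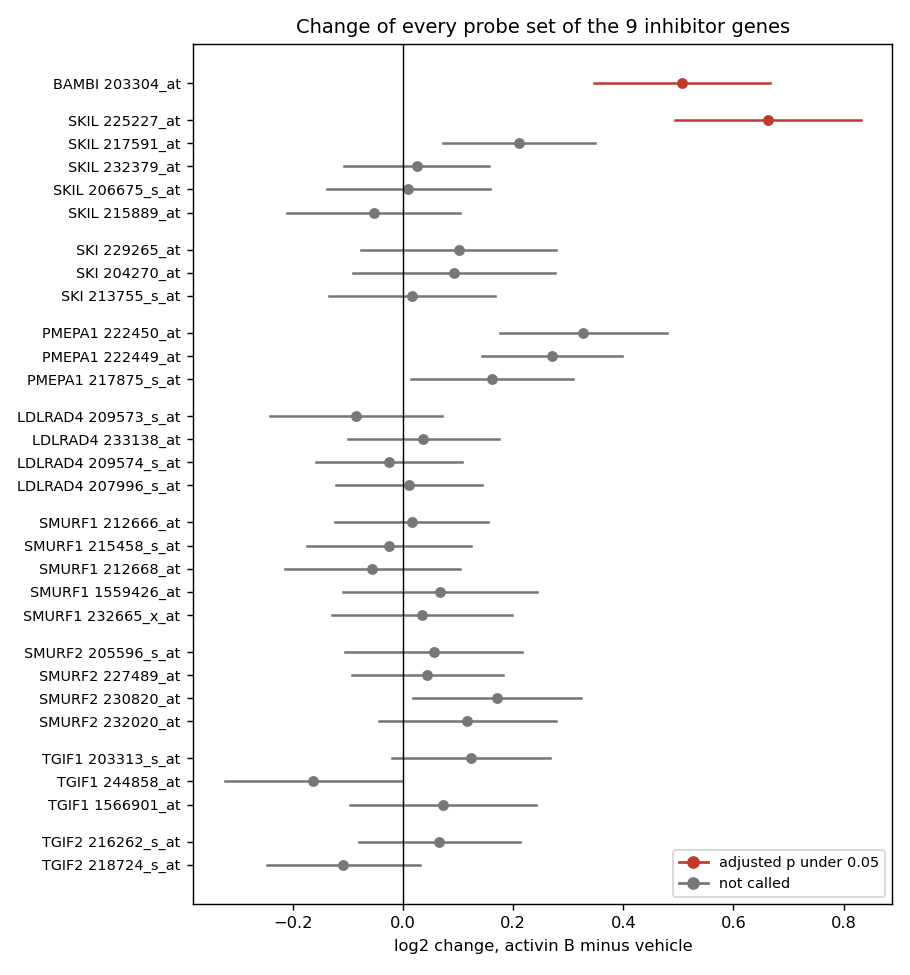
Log2 change, activin B minus vehicle, with 95% interval, of all 30 probe sets grouped by gene; coloured points passed the test. The 2 called sets are BAMBI at 0.51 and SKIL at 0.66, the 3 PMEPA1 sets lie from 0.16 to 0.33, SKIL 217591_at and SMURF2 230820_at lie among them at 0.21 and 0.17, and TGIF1 244858_at is the lowest at −0.16.

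The genes whose signals followed BAMBI and SKIL most closely were sought among the 47 other genes with a called probe set, by Pearson's r over the 6 arrays. SKIL had the highest r with BAMBI at 0.990, followed by ID1 at 0.977 and DUSP2 at 0.976. For SKIL the order was DUSP2 at 0.994, BAMBI at 0.990 and ATOH8 at 0.989. ID1 and ATOH8 are known SMAD1/5 targets, and DUSP2 is a phosphatase of MAP kinases. All these genes were chosen by differing between the groups, so the r values describe likeness and carry no test.

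The other pathway genes, 61 measured of 69 listed, showed where the differences lay around the inhibitors. Of these, 7 were called higher and 1 lower, where 0.101% of the 19775 genes were called higher and 0.091% lower. Among the 7 called higher, 5 were SMAD1/5 target genes. The whole list was chosen with earlier results of these data known, so these counts describe the list and carry no test. The median log2 change of the 61 was 0.03. SMAD7, the inhibitory SMAD that blocks receptors and works with the SMURF ligases, rose 1.55-fold (log2 change 0.63, limma adjusted p = 0.000313). SMAD6, the other inhibitory SMAD, had a log2 change of 0.32 (limma adjusted p = 0.336). Among the SMADs that carry the signal, SMAD9 rose with a log2 change of 0.77 (limma adjusted p = 5.38e-05), or 0.43 as the mean of all its probe sets. SMAD1 fell with a log2 change of −0.53 (limma adjusted p = 0.00344), or −0.40 as the mean of all its probe sets. Without the second vehicle array, SMAD1 was only just called (limma adjusted p = 0.0494). The other 4 SMADs of this kind, among them SMAD2, SMAD3 and SMAD4, did not pass.

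None of the 12 receptors passed, with log2 changes from −0.18 to 0.19, nor did any of the 11 other ubiquitin ligases and deubiquitinases, from −0.16 to 0.10. None of the 7 other corepressors passed either, a set that includes HDAC1 and CTBP1, nor did the 4 coactivators or the 3 phosphatases and anchors. Among SMAD1/5 target genes, 5 of 7 rose. The target lists were chosen with earlier results of these data known, so this count describes the list and carries no test. The log2 changes were 2.25 for ID1, 1.47 for ID2, 2.85 for ID3, 1.33 for DLX2 and 0.58 for ATOH8. ID4 at −0.11 (limma adjusted p = 0.995) and MSX2 at −0.15 (limma adjusted p = 0.959) did not pass. As the mean of all sets of a gene, the log2 change was 0.78 for DLX2 and 0.36 for ATOH8, and both were still called. Of the 9 genes listed as SMAD2/3 targets none passed by limma, with a median log2 change of 0.15. This list holds none of the inhibitors, and SMAD7 is counted under inhibitory SMADs, so it does not cover every target of that branch. The highest were JUNB at 0.31 (limma adjusted p = 0.173) and IL11 at 0.30 (limma adjusted p = 0.375). These log2 changes were similar in size to that of PMEPA1.

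**Figure D4:**
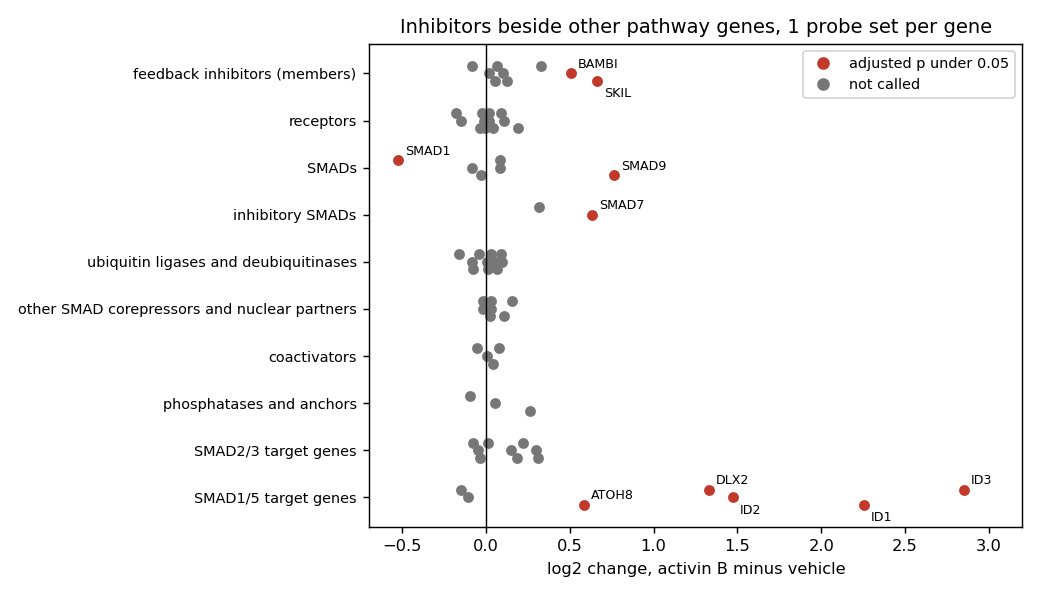
Log2 change, activin B minus vehicle (horizontal axis), of the inhibitors and of 61 other pathway genes by role, 1 probe set per gene; red points passed the test. BAMBI at 0.51 and SKIL at 0.66 lie near SMAD7 at 0.63, ID1, ID2 and ID3 lie from 1.47 to 2.85, and ID4 lies at −0.11.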

How the data were processed

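Gene expression was measured on Affymetrix U133 Plus 2.0 arrays in 3 vehicle and 3 activin B samples. The authors normalized the arrays by robust multiarray averaging in Chipster, and the deposited values are log2 signals. This step equalizes the arrays and averages probes, which removes shared shifts and compresses differences near background. Gene names came from the platform annotation, which gave 41091 of 54613 probe sets 1 symbol. The 62 array controls were left out. Groups were compared with limma 3.58.1 in R 4.3.3 (linear model, empirical Bayes), with Benjamini-Hochberg adjustment over all 54613 probe sets and calls at an adjusted p under 0.05. Their p-values rest on the spread among 3 samples per group, pooled with the spread of all probe sets. The weights were 4 degrees of freedom for the set itself and 10.76 for the pool. The SEs and intervals of single probe sets come from the same model, so they are not the spread of that set alone. The brightest probe set, by the mean of all 6 arrays, stood for its gene. Related genes and probe sets of 1 gene were compared by exact permutation over 20 labelings. The named genes were the members and the fixed pathway list. The model fit was tested on simulated data, where recovery was required only for log2 changes larger than any of the members. Members and lists were chosen with earlier results of these data known. Alternatives were a replicate block, filters, other scalings, empirical Bayes options, array weights, other probe set rules and leaving out each array. Scan dates were not used here. Protein sequences were not analysed here.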

Additional observations from a re-analysis of the deposited data

How the results depend on the processing

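BAMBI kept its direction and call in 15 of 16 alternatives (limma adjusted p from 0.00399 to 0.135) and lost the call only without the second vehicle array. SKIL 225227_at kept both in 16 of 17, and lost the call when all SKIL sets were averaged (log2 change 0.17). Leaving out 1 array at a time, the log2 change ran from 0.43 to 0.56 for BAMBI and from 0.57 to 0.73 for SKIL, the member sets called higher from 1 to 2, all sets called higher from 25 to 50 and all called lower from 7 to 26. The higher count was 25 without the second vehicle array and 26 without the second activin B array. The lower count was 7 without the second vehicle array, and between 10 and 13 without any other array except the third activin B array. With a mean signal of at least 7.5, 24 sets were called higher, 1 of them a member, since BAMBI was below the minimum and not tested. Without sets of the _s_ and _x_ types, 4 other pathway genes were called higher, as ID1, ID2 and ID3 have only such sets. Averaging all sets of a gene brought SKIL minus SKI to 0.10, PMEPA1 minus LDLRAD4 to 0.27, SMURF1 minus SMURF2 to −0.09 and TGIF1 minus TGIF2 to 0.03. No uncalled member set was called in any alternative (lowest limma adjusted p 0.0692).

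The replicate numbers were tried as a block. Arrays with the same number had deviations correlated at 0.16, 0.04 and 0.19, so the numbers were not taken to pair the samples, although every array correlated best with the array of its own number in the other group, a hint from the data and not from the design. With the replicate block, 53 sets were called higher and 44 lower, 2 members were called higher (BAMBI adjusted p = 0.00399, SKIL 0.00113), and PMEPA1 222450_at had an adjusted p of 0.0692. The cause was not tested.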

Other observations

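Probe sets of transcripts beside the inhibitors gave these values. The set 1560181_at of LDLRAD4-AS1, an antisense transcript of LDLRAD4, averaged 6.49 ± 0.11 on the vehicle arrays and 6.44 ± 0.04 on the activin B arrays (log2 signal, SD, n = 3), with overlapping groups. The 3 sets shared by RAB5IF and the TGIF2-RAB5IF readthrough had log2 changes of −0.01, 0.01 and −0.04 and are not counted for TGIF2.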
